A study of Mus musculus with 6 samples.

Results

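The genes described here are the ligands of the epidermal growth factor receptor that the tables list under Tgfa, Areg, Ereg, Hbegf, Btc and Egf, and the ErbB receptors Egfr, Erbb2 and Erbb3. They were chosen by gene symbol, matched through Ensembl identifiers, and are 9 of the 22556 genes in the tables. RNA-sequencing was done on whole pancreas of wild type C57BL/6 mice at post natal week 8, in 3 groups of 2 mice each. All mice were male, as the methods state. Saline mice received saline. AP mice had acute pancreatitis induced with caerulein, a cholecystokinin analogue that overstimulates acinar cells, given in 10 hourly injections with tissue taken 24 h after the first. PolyI:C-pretreated mice with pancreatitis (polyI:C+AP mice) received the same caerulein after polyI:C, a synthetic double-stranded RNA that activates Toll-like receptor 3, at 10 mg/kg. The methods describe polyI:C given 1 h or 8 h before caerulein and do not name the interval for the sequenced mice, and no group received polyI:C without caerulein.

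Ligands of this family are made as membrane-bound precursors, and cell-surface proteases, chiefly ADAM17 with its iRhom partners, cut most of them free. Bound ligand pairs the receptors: EGFR takes all of the ligands listed here, ERBB2 has no known ligand and acts as a partner, and ERBB3 binds neuregulins, has a weak kinase and recruits PI3-kinase when paired. In the pancreas the pathway is best known from acinar-to-ductal metaplasia, the change of enzyme-secreting acinar cells to a duct-like state during pancreatitis, in which TGF-alpha, EGFR and the RAS-ERK cascade take part.

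The promoters of 6 of the 9 genes were matched in the RefSeq table, those of Tgfa, Areg, Btc, Egf, Egfr and Erbb2, and not those of Ereg, Hbegf and Erbb3. Shown are the 250 bases upstream of the RefSeq start site (GRCm38.p6), written 5′ to 3′ on the strand of the gene, for the ligand whose transcript fell in pancreatitis (Egf, chr3:129755323-129755572, minus strand), the ligand read in some mice and not in others (Areg, chr5:91139349-91139598, plus strand), and a pair of receptors whose transcripts rose (Egfr, chr11:16751953-16752202, plus strand; Erbb2, chr11:98412234-98412483, plus strand). Capitals mark matches, on either strand, to the cyclic AMP response element TGACGTCA, the AP-1 site TGANTCA, the TATA box TATAAA, the GC box GGGCGG and the CCAAT box.
Egf: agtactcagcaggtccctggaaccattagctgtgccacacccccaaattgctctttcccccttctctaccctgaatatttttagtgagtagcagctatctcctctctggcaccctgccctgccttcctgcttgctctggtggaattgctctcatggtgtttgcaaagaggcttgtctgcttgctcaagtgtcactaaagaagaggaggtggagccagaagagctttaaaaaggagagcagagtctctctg
Areg: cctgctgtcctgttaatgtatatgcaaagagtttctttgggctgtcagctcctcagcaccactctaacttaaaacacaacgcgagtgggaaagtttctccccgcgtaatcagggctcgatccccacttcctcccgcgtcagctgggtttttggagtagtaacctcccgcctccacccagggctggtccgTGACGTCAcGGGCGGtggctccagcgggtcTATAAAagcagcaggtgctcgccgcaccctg
Egfr: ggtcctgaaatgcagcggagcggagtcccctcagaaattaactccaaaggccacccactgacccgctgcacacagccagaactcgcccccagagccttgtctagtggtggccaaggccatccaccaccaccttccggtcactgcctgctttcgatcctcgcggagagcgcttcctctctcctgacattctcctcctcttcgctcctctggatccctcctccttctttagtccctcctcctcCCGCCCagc
Erbb2: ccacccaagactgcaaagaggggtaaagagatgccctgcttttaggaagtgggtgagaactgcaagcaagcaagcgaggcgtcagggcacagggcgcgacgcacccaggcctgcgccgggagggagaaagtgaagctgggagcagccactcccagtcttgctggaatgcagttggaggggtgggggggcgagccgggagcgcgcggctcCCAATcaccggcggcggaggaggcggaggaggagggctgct
RefSeq gives Egf another start site 30230 bases from the GENCODE 5′ end of the gene (window chr3:129725087-129725336, 15 CpGs, 52% G or C and none of the motifs), and the window shown is that of the start 6 bases from that end. The Egf window held none of these letters and no CpG, and 50.4% of its bases were G or C. The Areg window held 1 cyclic AMP response element, 1 GC box and 1 TATA box, none of them overlapping, with 15 CpGs and 57.2% G or C. The Egfr window held 1 GC box, read on the opposite strand as CCGCCC, with 11 CpGs and 60.8% G or C, and the Erbb2 window 1 CCAAT box, with 16 CpGs and 66% G or C. Over all 32851 promoter windows of the same length the median was 52.4% G or C, and the shares that held each motif were 1.55% for TGACGTCA, 6.75% for TGANTCA, 12.4% for TATAAA, 32.7% for GGGCGG and 33.9% for CCAAT. Areg and Ereg lie in a row on chromosome 5 with Btc beyond them, and Egfr and Erbb2 are both on chromosome 11.

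Values are TPM, read counts scaled for transcript length and library total, so levels of different genes can be set side by side. A gene was called changed where limma, fitted to log2(TPM + 0.5) over the 16814 genes averaging 1 TPM or more, gave a change of 2-fold or more with p no higher than 0.05 after Benjamini-Hochberg adjustment, and log2 fold changes below are on that scale. The tables were estimated to rest on between 3297132 and 10826695 reads per mouse, with the saline mice the shallowest. The 15 genes that each held over 1% of a library made up 27.6% to 30.4% of the TPM of saline mice and 15.4% to 19.0% of that of the other mice, and the median gene lay 0.45 higher (log2) in AP mice than in saline mice. Median-of-ratios scaling brought that median to 0.06, and the members whose calls or directions moved with it are named beside their values.

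In AP mice Egf fell and the 3 receptors rose. In AP mice against saline mice, 8 of the 9 members passed the filter on low values. Of these, 5 rose (Hbegf, Btc, Egfr, Erbb2 and Erbb3), 1 fell (Egf) and 2 did not pass the test (Tgfa and Areg). With median-of-ratios scaling 3 rose (the receptors) and 1 fell (Egf), where 9.31% of all genes rose and 7.26% fell. Of all 16814 genes tested, 18.2% rose and 4.03% fell in this comparison. Without overlap between the groups, 6 of the 8 members were higher in AP mice, Areg with them, and 1 was lower, where 52.6% of all genes were higher and 16.4% lower. The plot of the transcript level in each mouse shows the drop of Egf beside the rise of all 3 receptors.

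**Figure D1:**
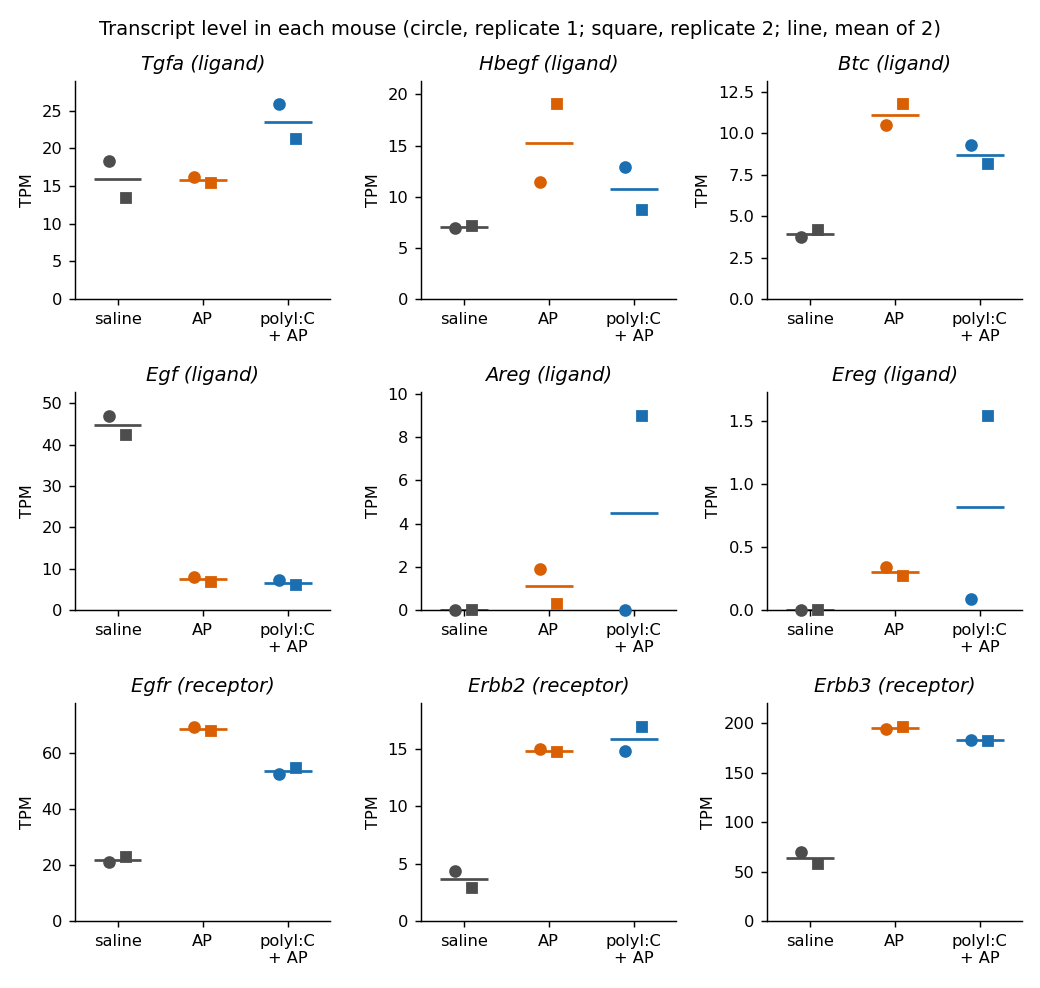
TPM of the 6 ligands and 3 receptors (vertical axes, from 0, a scale of its own for each gene) in saline, AP and polyI:C+AP mice; circles are replicate 1, squares replicate 2 and lines the mean of 2. Egf lies between 42.3 and 47.0 TPM in saline mice and between 6.06 and 8.01 TPM in the other 4 mice, whereas Egfr, Erbb2 and Erbb3 are lowest in both saline mice.

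Egf, the founding ligand of the family and a large membrane precursor in the tissues that make it, was the most abundant of the ligands in saline pancreas (ENSMUSG00000028017, chromosome 3). It stood at 47.0 and 42.3 TPM in saline mice, 8.01 and 6.84 TPM in AP mice, and 7.30 and 6.06 TPM in polyI:C+AP mice. Both saline mice were far above the other 4, and the AP and polyI:C+AP mice overlapped. Egf fell 6.01-fold from 44.6 ± 3.34 TPM (SD, n = 2) in saline mice to 7.43 ± 0.828 TPM (SD, n = 2) in AP mice, by 2.51 on the log2 scale (SE 0.14, adjusted p = 7.6e-05).

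Tgfa encodes TGF-alpha, a high-affinity EGFR ligand (ENSMUSG00000029999, chromosome 6). Its levels were 18.3 and 13.4 TPM in saline mice, 16.2 and 15.4 TPM in AP mice, and 25.8 and 21.2 TPM in polyI:C+AP mice. The AP mice lay within the range of the saline mice, and both polyI:C+AP mice lay above the other 4. The difference between AP and saline mice was 0.01 on the log2 scale (95% confidence interval -0.43 to 0.44, adjusted p = 0.98), and it turned to -0.41 with median-of-ratios scaling, -0.20 without the genes above 1% of a library and -0.26 with voom on the estimated reads.

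Hbegf encodes heparin-binding EGF-like growth factor, which binds EGFR and the fourth receptor ERBB4 (ENSMUSG00000024486, chromosome 18). Its levels were 6.93 and 7.10 TPM in saline mice, 11.4 and 19.0 TPM in AP mice, and 12.9 and 8.69 TPM in polyI:C+AP mice. Both AP mice were above both saline mice but far apart from each other, and the polyI:C+AP mice overlapped with them. The rise in AP mice was 2.17-fold (log2 1.02, SE 0.29, adjusted p = 0.029), at the edge of both limits, and the call was lost in 12 of 17 alternative settings, among them the fit without AP replicate 2, which gave a log2 difference of 0.67 (adjusted p = 0.20), and median-of-ratios scaling, which gave 0.61 (adjusted p = 0.14).

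Btc encodes betacellulin, another ligand of EGFR and ERBB4, first found in a pancreatic beta cell tumour line (ENSMUSG00000082361, chromosome 5). It measured 3.74 and 4.18 TPM in saline mice, 10.5 and 11.8 TPM in AP mice, and 9.28 and 8.16 TPM in polyI:C+AP mice. The saline values rested on only about 25 and 22 reads. The 3 groups did not overlap, with saline lowest and AP highest. Btc rose 2.81-fold in AP mice (log2 1.38, SE 0.20, adjusted p = 0.0019), and median-of-ratios scaling left a log2 rise of 0.99, just under 2-fold.

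Areg and Ereg encode amphiregulin and epiregulin, inducible ligands of EGFR that immune and epithelial cells release after injury (ENSMUSG00000029378 and ENSMUSG00000029377, chromosome 5). Areg was listed at 0 in both saline mice, at 1.93 and 0.305 TPM in AP mice, and at 0 and 8.99 TPM in polyI:C+AP mice. These values correspond to about 0, 0, 5, 1, 0 and 36 reads. A count of 0 in the saline libraries allows up to 1.70 and 2.08 TPM (3 reads, counting error only), so both AP values were within or close to what those libraries could have missed. Ereg was likewise listed at 0 in both saline mice, at 0.340 and 0.269 TPM in AP mice, and at 0.0924 and 1.54 TPM in polyI:C+AP mice. It rested on about 0, 0, 3, 3, 1 and 21 reads and was the member that did not pass the filter on low values. In both genes polyI:C+AP replicate 2 held the highest value of the 6 mice and replicate 1 was at or near 0, so the mice of that group differed more from each other than from the AP mice. Areg did not pass the test in any comparison (log2 1.48, SE 1.38, adjusted p = 0.44 in AP against saline mice).

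Egfr, the receptor that binds all of these ligands (ENSMUSG00000020122, chromosome 11), stood at 21.0 and 22.8 TPM in saline mice, 69.5 and 67.9 TPM in AP mice, and 52.5 and 54.7 TPM in polyI:C+AP mice. The groups did not overlap, and the polyI:C+AP mice lay between the others. Egfr rose 3.13-fold in AP mice (log2 1.63, SE 0.09, adjusted p = 7.9e-05).

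Erbb2, the receptor without a known ligand of its own (ENSMUSG00000062312, chromosome 11), was the lowest of the 3 receptors. It measured 4.39 and 2.91 TPM in saline mice, 14.9 and 14.7 TPM in AP mice, and 14.8 and 16.9 TPM in polyI:C+AP mice. The saline values rested on only about 33 and 18 reads. Both groups given caerulein were above saline and overlapped with each other. Erbb2 rose 4.06-fold in AP mice (log2 1.91, SE 0.21, adjusted p = 0.00074). Some of its exons overlap Mien1 on the opposite strand, which lay between 48.6 and 68.6 TPM in the 6 mice, and since the strand setting of the counting is not given in the sources used here, reads of this pair may not be separated.

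Erbb3, the neuregulin receptor that couples to PI3-kinase (ENSMUSG00000018166, chromosome 10), had the highest level of all 9 members in each of the 6 mice. Its levels were 70.0 and 58.1 TPM in saline mice, 194 and 196 TPM in AP mice, and 182.3 and 182.2 TPM in polyI:C+AP mice. Saline mice were lowest, and the AP mice lay above the polyI:C+AP mice by a small margin. The rise in AP mice was 3.05-fold (log2 1.61, SE 0.11, adjusted p = 0.00014). The calls of Egf, Egfr, Erbb2 and Erbb3 in AP against saline mice held in all 17 alternative settings run.

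PolyI:C pretreatment changed none of the members past the threshold. In polyI:C+AP mice against AP mice, limma called 0 of the 8 tested members, and voom on the estimated reads also called 0. Over all genes tested, 0.440% were higher and 0.404% lower. By the values alone, 1 member (Tgfa) was higher without overlap and 3 (Btc, Egfr and Erbb3) were lower, where 27.7% of all genes were higher and 22.1% lower in that way. At an unadjusted p of at most 0.05 there were 2 members, Tgfa and Egfr, where 13.9% of all genes passed the same limit. Tgfa was higher in both polyI:C+AP mice (1.49-fold, log2 0.55, SE 0.18, unadjusted p = 0.020, adjusted p = 0.25). Egfr was lower in both (log2 -0.36, SE 0.09, 95% confidence interval -0.57 to -0.14, adjusted p = 0.14). For Egf the difference was -0.14 (95% confidence interval -0.47 to 0.19, adjusted p = 0.72), for Btc -0.34 (-0.80 to 0.13, adjusted p = 0.52) and for Hbegf -0.46 (-1.15 to 0.23, adjusted p = 0.56). The intervals of Erbb2 (-0.41 to 0.59) and Erbb3 (-0.36 to 0.16) also held 0. With 2 mice a group, the intervals of Egf, Btc, Egfr, Erbb2 and Erbb3 left out a 2-fold change in either direction. That of Tgfa (0.12 to 0.99) left it out by a small margin. The interval of Hbegf did not leave out a 2-fold fall, and that of Areg (-2.66 to 3.94) did not leave out a 2-fold change in either direction.

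**Figure D2:**
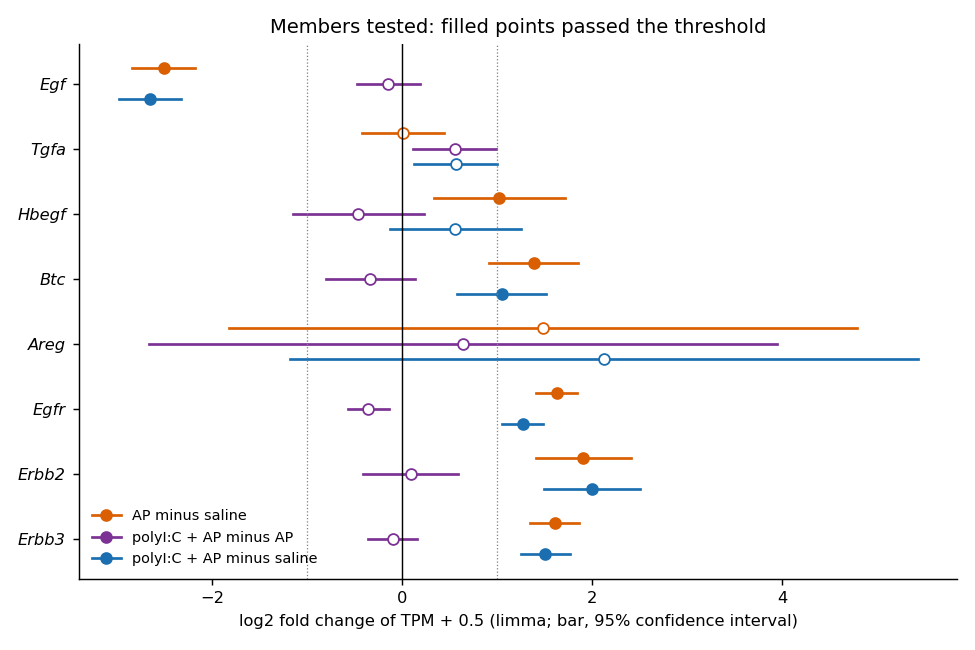
Log2 fold change of TPM + 0.5 (horizontal axis) of the 8 tested members in AP minus saline, polyI:C+AP minus AP, and polyI:C+AP minus saline mice; points are limma estimates, bars 95% confidence intervals, filled points passed the threshold and dotted lines mark 2-fold. The 3 receptors lie at 1.27 or above in both comparisons with saline and between -0.36 and 0.09 in the comparison of the caerulein groups.

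Against saline mice, the polyI:C+AP mice had 4 members higher (Btc, Egfr, Erbb2 and Erbb3) and 1 lower (Egf) of 8 tested, where 16.9% of all genes were higher and 2.97% lower. Without overlap, 6 of the 8 were higher, Tgfa and Hbegf with the 4 called, and 1 lower, where 54.4% of all genes were higher and 14.0% lower. This comparison shares its saline mice with the first and its polyI:C+AP mice with the second, so it is not independent of them. Egf was lower by 6.68-fold (log2 -2.66, adjusted p = 6.1e-05). Egfr was higher by 2.45-fold (log2 1.27, adjusted p = 0.00018), though by 0.82 on the log2 scale with median-of-ratios scaling, below the 2-fold limit. Erbb2 was higher by 2.00 in log2 units (adjusted p = 0.00070) and Erbb3 by 1.51 (adjusted p = 0.00018), and both calls held in all 17 settings. Btc was 2.20-fold higher (log2 1.05, adjusted p = 0.0063) and lost its call in 6 of the 17. Tgfa reached an adjusted p of 0.048 at 1.48-fold, under the 2-fold limit, and its log2 difference of 0.56 was 0.12 with median-of-ratios scaling. For Hbegf the log2 difference was 0.56 (adjusted p = 0.17).

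The order of the levels changed with caerulein. In saline mice it ran from Erbb3 through Egf, Egfr, Tgfa and Hbegf to Btc and Erbb2, whose ranges overlapped, with Areg and Ereg listed at 0. In AP mice Erbb3 and Egfr came first, Hbegf overlapped with Tgfa, Erbb2 and Btc, and Egf had moved below Btc. In polyI:C+AP mice Erbb3, Egfr, Tgfa and Erbb2 came in that order without overlap, followed by Hbegf and Btc, which overlapped, and then Egf. Areg spanned 0 to 8.99 TPM there and could not be placed.

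The make-up of the ligand pool differed accordingly. Egf made up 61.8% and 63.1% of the summed ligand TPM in saline mice, 16.6% and 12.8% in AP mice, and 13.2% and 11.1% in polyI:C+AP mice. Tgfa made up 24.1% and 20.03%, then 33.4% and 28.8%, then 46.6% and 38.8%, and was the leading ligand in 3 of the 4 mice given caerulein, with Hbegf leading in AP replicate 2. The summed ligand TPM was 76.0 and 66.9 in saline mice, 48.4 and 53.6 in AP mice, and 55.4 and 54.7 in polyI:C+AP mice. Without Egf the saline mice were lowest instead of highest, at 29.0 and 24.7, 40.4 and 46.8, and 48.1 and 48.6 TPM. The summed receptor TPM rose from 95.4 and 83.8 to 278.5 and 278.7 in AP mice and was 249.6 and 253.8 in polyI:C+AP mice, so that receptor transcripts exceeded ligand transcripts by 1.26 and 1.25 times in saline mice, 5.75 and 5.20 times in AP mice, and 4.51 and 4.64 times in polyI:C+AP mice. Within the receptors the shares moved little: Erbb3 held between 69.3% and 73.4% in all 6 mice. These ratios within a library do not depend on how the libraries are scaled, and they are given without a test.

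**Figure D3:**
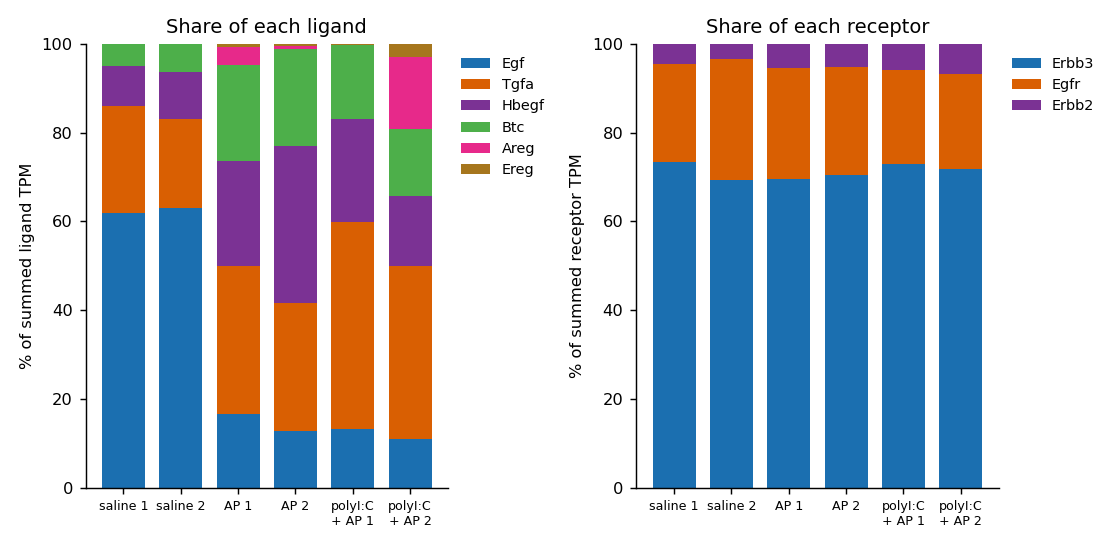
Share of each ligand in the summed ligand TPM (left) and of each receptor in the summed receptor TPM (right), in percent, one bar for each of the 6 mice. Egf takes over 60% of the bar in both saline mice and under 20% in the other 4, while Erbb3 takes 69.3% to 73.4% of the receptor bar in every mouse.

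The remaining members of the family were near the detection limit. Of Epgn, Erbb4, Nrg1, Nrg2, Nrg3 and Nrg4, 3 were tested. Erbb4, the fourth receptor, fell in AP mice, where it was at 0.673 and 0.840 TPM against 2.28 and 2.10 TPM in saline mice (log2 -1.10, SE 0.32, adjusted p = 0.032), the opposite direction to the other 3 receptors. It was at 1.18 and 0.596 TPM in polyI:C+AP mice. The neuregulin genes Nrg2 and Nrg4 did not pass the test in AP against saline mice (log2 -0.46 and 0.61), and Nrg1, which encodes a ligand of ERBB3, did not exceed 0.460 TPM in any mouse.

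Several genes of ligand release rose in AP mice. Of the 9 sheddase and iRhom genes tested, 5 rose, 0 fell and 4 did not pass the threshold (Adam9, Adam10, Adam19 and Rhbdf1), where 18.2% of all genes rose, with a median log2 fold change of 1.20 beside 0.45 over all genes tested. Adam17, the protease that cuts TGF-alpha, amphiregulin and HB-EGF, was at 12.3 and 14.7 TPM in saline mice, 31.6 and 33.6 TPM in AP mice and 29.7 and 31.2 TPM in polyI:C+AP mice (log2 1.25 in AP against saline, adjusted p = 0.00051). Rhbdf2 and Frmd8, whose products iRhom2 and iTAP escort and stabilise ADAM17, rose by log2 fold changes of 2.09 and 1.98 (adjusted p = 0.00043 and 0.00015). Adam12, a sheddase made mostly by mesenchymal cells, rose by 2.82 from low levels of 0.563 and 0.441 TPM to 6.09 and 7.09 TPM (adjusted p = 0.00029). With median-of-ratios scaling 3 of the 9 rose, where 9.31% of all genes rose, and Adam17 was no longer among them. Against AP mice, the polyI:C+AP mice had 0 of the 9 called by limma, where 0.440% of all genes were higher and 0.404% lower. Voom called 1 of the 9, and 323 of all 16814 genes. At an unadjusted p of at most 0.05 there were 2 of the 9, where 13.9% of all genes passed that limit. The largest differences were in Adam12 (log2 -0.97, adjusted p = 0.13) and in Adam10, the protease that cuts the EGF and betacellulin precursors, which stood at 125 and 128 TPM in AP mice and 224 and 231 TPM in polyI:C+AP mice (log2 0.85, adjusted p = 0.074).

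Downstream of the receptors, 5 of 18 adaptor and ERK cascade genes rose in AP mice and 0 fell, with a median log2 fold change of 0.64, where 18.2% of all genes tested rose. Nras, a RAS isoform, rose by 1.59 (log2; adjusted p = 0.00012), Ksr1, a scaffold of the cascade, by 1.40 (adjusted p = 0.0028), Grb7, an adaptor that binds ERBB2 and whose gene lies beside it, by 1.36 (adjusted p = 0.011), and Mapk3, which encodes ERK1, by 1.25 (adjusted p = 0.0034). With median-of-ratios scaling 2 rose and 1 fell, where 9.31% of all genes rose and 7.26% fell. Of 8 genes of the PI3-kinase branch, 0 rose and 1 fell, where 18.2% of all genes tested rose and 4.03% fell. The gene that fell was Pik3r1, the main regulatory subunit. It stood at 85.5 and 89.4 TPM in saline mice and at 32.9 and 34.0 TPM in AP mice (log2 -1.37, adjusted p = 0.00016). The median of that branch was 0.19 and turned to -0.23 with median-of-ratios scaling. Of 10 receptor inhibitors and degradation genes, 2 rose, a share near the 18.2% of all genes tested, Lrig3 (log2 1.35, adjusted p = 0.017) and the ubiquitin ligase gene Cbl (log2 1.06, adjusted p = 0.0011), and neither was called with median-of-ratios scaling.

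The genes that ERK signalling is known to induce had the highest median of the 6 lists. In AP mice 9 of the 17 tested rose and 0 fell, where 18.2% of all genes tested rose and 4.03% fell. The median log2 fold change was 1.54. With median-of-ratios scaling 8 rose, where 9.31% of all genes rose. In the main test 8 genes were not called. Of these, Spry1 had a negative log2 difference (-0.58, adjusted p = 0.10). The others were Myc (0.33), Spry4 (0.36), Ccnd1 (0.62), Spred1 (0.74), Spry2 (0.99), Phlda1 (1.51) and Fosl1 (1.54). Ier3, an immediate early gene that NF-kappaB also induces, was at 6.66 and 14.9 TPM in saline mice, 268 and 279 TPM in AP mice and 121 and 96.3 TPM in polyI:C+AP mice. Dusp5, a nuclear ERK phosphatase, was at 1.66 and 1.36 TPM, then 30.8 and 27.8 TPM, then 12.5 and 13.9 TPM. In both genes the polyI:C+AP mice lay between the other groups without overlap. Against saline mice the AP mice were higher by 4.71 for Ier3 and 3.89 for Dusp5, in log2 units (adjusted p = 0.00016 and 5.8e-05). Dusp4, another nuclear phosphatase, rose by 3.11 (adjusted p = 8.7e-05), and Etv4, an ETS factor, by 2.86 (adjusted p = 0.0015) from about 0.1 TPM.

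In polyI:C+AP mice against AP mice 0 of the 17 ERK-induced genes passed the threshold in limma and 2 with voom. Over all 16814 genes voom called 323. At an unadjusted p of at most 0.05, 4 of the 17 were lower, where 6.07% of all genes were. The median was -0.34, beside 0.04 over all genes tested. Ier3 differed by -1.34 (adjusted p = 0.14), Dusp5 by -1.13 (adjusted p = 0.058) and Dusp4 by 0.18 (adjusted p = 0.73). The adaptor, PI3-kinase, inhibitor and other EGF family lists had 0 genes called by either tool in this comparison, with 2, 1, 1 and 0 of 18, 8, 10 and 3 tested at an unadjusted p of at most 0.05, where 13.9% of all genes passed that limit.

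**Figure D4:**
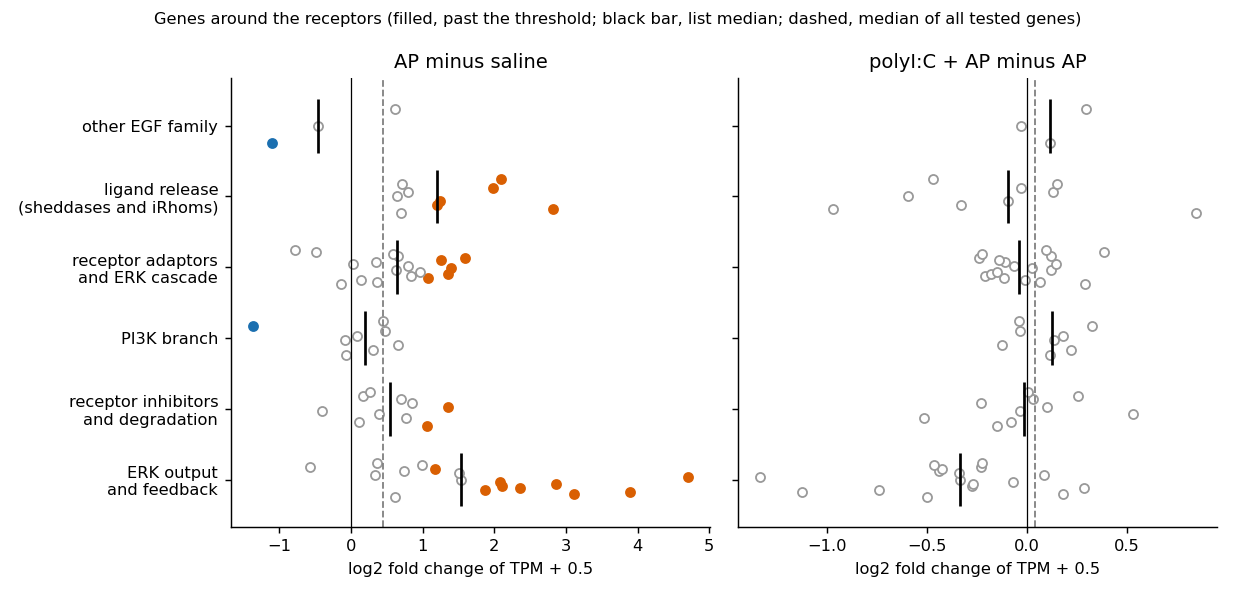
Log2 fold change of TPM + 0.5 (horizontal axes) of each tested gene in the 6 lists around the receptors, for AP minus saline (left) and polyI:C+AP minus AP mice (right); filled points passed the threshold, black bars are list medians and dashed lines the median of all tested genes, at 0.45 and 0.04. The ERK output list reaches furthest to the right in AP mice, up to 4.71 for Ier3, and no point is filled on the right.

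The pancreas holds many cell types, and in bulk tissue fewer cells of a type and less RNA per cell cannot be told apart. Markers of several cell types also differed between the groups, not all in the same pattern as the members, and their part in these results was not tested. The 8 duct markers summed to 443 to 527 TPM in saline, 2591 to 2633 TPM in AP and 2334 to 2460 TPM in polyI:C+AP mice. Btc, Egfr and Erbb3 had the same order of groups without overlap, and so did the sum of the neutrophil markers below. Krt19, a duct keratin, rose by 4.17 (log2) in AP mice (adjusted p = 1.3e-05). Of the 8 duct markers, 5 rose, where 18.2% of all genes tested rose and 4.03% fell. With median-of-ratios scaling 3 rose, where 9.31% of all genes rose, and with voom also 3, where 1784 of all 16814 genes rose. The monocyte and macrophage markers, 9 of 9 with values, summed to 382 to 557, 2418 to 2668 and 398 to 494 TPM. Lyz2 made up most of this sum in saline and AP mice (444 and 307 TPM in saline mice). Of the 9 markers, 8 rose in AP mice, where 18.2% of all genes tested rose. In polyI:C+AP against saline mice 3 were higher (Cd14, Cd68 and Fcgr1) and 2 were lower (Lyz2 and Csf1r). Over all genes tested, 16.9% were higher and 2.97% lower in that comparison. Cd14 was at 15.7 and 13.9 TPM in saline mice and 216 and 209 TPM in polyI:C+AP mice. The neutrophil markers, 6 of 8 with values, summed to 5.15 to 16.6, 57.9 to 68.2 and 20.1 to 41.8 TPM, with Elane at 0 in all saline and AP mice. Of the 8 fibroblast and stellate markers, 4 rose in AP mice and 0 fell, where 18.2% of all genes tested rose and 4.03% fell. Those that rose were Col1a1 (log2 1.95), Col1a2 (1.70), Col3a1 (2.74) and Lum (1.16). The 8 markers summed to 634 to 855 TPM in saline, 802 to 976 TPM in AP and 710 to 834 TPM in polyI:C+AP mice. Dcn led this sum, at 605 TPM on average in saline mice and 367 TPM in AP mice (log2 -0.73, under the 2-fold limit). None of the endothelial, islet and lymphocyte markers tested was called by limma or voom in AP against saline mice (1 islet marker had an unadjusted p of at most 0.05), and the lymphocyte sum did not exceed 25.5 TPM in any mouse. Interferon-stimulated genes summed to 23.0 to 26.4 TPM in saline, 126 to 189 TPM in AP and 624 to 641 TPM in polyI:C+AP mice. By group means Erbb2, Areg and Ereg had this order and the other members did not. In each of Erbb2, Areg and Ereg the AP and polyI:C+AP mice overlapped, and a link was not tested.

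The acinar markers with values in the tables, 5 of 15, summed to 1312 to 1378 TPM in saline, 458 to 485 TPM in AP and 1108 to 1199 TPM in polyI:C+AP mice. The genes of the main digestive enzymes were not analysed here. Cckar, the acinar receptor for cholecystokinin and caerulein, was at 612 and 653 TPM in saline mice, 166 and 184 TPM in AP mice and 517 and 594 TPM in polyI:C+AP mice. Of the 5, 3 fell in AP mice, where 4.03% of all genes tested fell, and 2 did not pass the test, Ptf1a (log2 0.20) and Nr5a2 (log2 0.16). Cckar and Bhlha15 made up most of the sum in saline mice. Cckar fell in AP mice (log2 -1.85, adjusted p = 8.8e-05) and was higher by 1.66 with polyI:C (adjusted p = 0.0037), as were the acinar transcription factor genes Bhlha15 (1.73, adjusted p = 0.0040) and Rbpjl (1.08, adjusted p = 0.033). Egf, which also fell in AP mice, was at 7.30 and 6.06 TPM in polyI:C+AP mice.

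The genes whose pattern over the 6 mice was nearest to each called member were found by Euclidean distance between centred log2(TPM + 0.5) profiles, among genes averaging 10 TPM or more. For Egfr these were Ubald2 (distance 0.0980) and Stx3 (0.103), for Erbb2 Ptgfrn (0.164) and Map3k20 (0.230), and for Erbb3 Tyk2 (0.120) and Ifngr2 (0.124). Btc was nearest to Ctsd, which encodes the lysosomal protease cathepsin D (0.0935), and to Ccdc25 (0.104). Hbegf was nearest to Cebpd (0.303) and Prnp (0.306). The nearest to Egf were Gm45623 (0.389) and Gpsm1 (0.466), both further away than the nearest genes of any other called member.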

How the data were processed

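Whole-pancreas RNA of 6 mice (3 groups, n = 2) was sequenced, and per the labels the groups follow the treatment field. The authors trimmed reads with Trimmomatic, aligned them to mm10 with STAR, counted them with HTSeq and tested them with DESeq2. The deposited values are TPM, 1 table per mouse, and the step from counts to TPM and the strand setting are not given in the sources used here. The labels name both ribosomal RNA depletion and an mRNA kit.

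Of 22556 genes, 22490 matched GENCODE M21 (GRCm38), which gave symbols, coordinates and exon lengths. TPM are no counts, so these were tested with limma 3.58.1 on log2(TPM + 0.5), with all 6 mice, a coefficient per group, no covariate, a prior variance following log2(mean TPM x exon length + 1), a minimum mean of 1 TPM (16814 genes), and Benjamini-Hochberg adjustment over them. Folds given as "-fold" are ratios of mean TPM. The pseudocount understates changes of low genes. The fit was run on simulated data with equal numbers of genes raised and lowered by more than 2-fold. That run does not cover the shift of the median gene in AP mice or changes near 2-fold.

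Depth was estimated from the spacing of low values: between 51.2% and 62.5% of values under 20 reads fell within 0.1 of a whole read, against 19.3% to 20.7% with lengths shuffled. Estimated reads therefore entered an alternative fit, the read counts given for Areg, Ereg, Btc and Erbb2, and the floors in TPM, but not the main test. Intervals and floors of read counts cover counting error only. The methods state that all mice were kept in a specific pathogen-free environment. They do not say how cages or processing batches were divided among the groups, so p-values measure the spread between these samples.

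Members and lists were chosen with earlier results of these data known. Named were all members, from each list up to 4 genes with the largest change in AP against saline mice and up to 2 in polyI:C+AP against AP (of these the ones that bear on a sentence are printed), the 2 nearest genes of each called member, and markers beside a result. The ERK-induced genes not called in AP against saline mice were named as well. Alternatives changed the pseudocount, filter, scaling, prior, samples or replicates. Promoters were RefSeq sequences (GRCm38.p6). Over 100-base stretches none of the 9 members shared sequence with another gene. No protein sequences were used here.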

Additional observations from a re-analysis of the deposited data

How the results depend on the processing

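There were 17 alternatives, 16 for Areg, which was not tested at a minimum mean of 5 TPM. The calls of Egf, Erbb2 and Erbb3 in both comparisons with saline mice, and of Egfr in AP against saline mice, held in all of them, and no member was called in polyI:C+AP against AP mice in any. Median-of-ratios scaling moved the median of all genes in AP against saline mice from 0.45 to 0.06, and the genes higher and lower from 3053 and 677 to 1566 and 1220; the corresponding counts for polyI:C+AP against saline mice went from 2838 and 500 to 1325 and 982. In AP against saline mice this scaling gave log2 values of -0.41 for Tgfa, 0.61 for Hbegf and 0.99 for Btc, and in polyI:C+AP against saline mice 0.63 for Btc and 0.82 for Egfr. Without the genes above 1% of a library, Tgfa came to -0.20 and Hbegf to 0.83 in AP mice and Btc to 0.84 in polyI:C+AP mice, each against saline. With voom on the estimated reads the same values were -0.26, 0.84 and 0.84. A pseudocount of 1 gave 0.98 for Hbegf and 0.97 for Btc in those comparisons. Hbegf stayed at 1.02 but missed the adjusted p limit without the filter on low values, with the prior over mean log2 TPM and with one prior variance.

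Leaving out 1 mouse at a time, in AP against saline mice Tgfa ranged from -0.21 (without saline replicate 2) to 0.23 and Hbegf from 0.67 (without AP replicate 2) to 1.38, and Hbegf kept its call only without AP replicate 1. In polyI:C+AP against AP mice, Areg ranged from -1.48 (without polyI:C+AP replicate 2) to 2.76 and Erbb2 from -0.0026 to 0.18. In polyI:C+AP against saline mice, Btc ranged from 0.96 to 1.13 and lost its call without saline replicate 1 or polyI:C+AP replicate 1. Areg there ranged from 0 without polyI:C+AP replicate 2 to 4.25 without polyI:C+AP replicate 1, when it passed the threshold (adjusted p = 0.045) with a single mouse left in that group, assumed to vary like the others. Genes called in AP against saline mice ranged from 2399 (without AP replicate 2) to 3648. Those called in polyI:C+AP against AP mice, 142 in all 6 mice, ranged from 0 to 80: 0 without either AP mouse or without polyI:C+AP replicate 2 (1421 to 1523 genes at an unadjusted p of at most 0.05), 53 without polyI:C+AP replicate 1, and 72 or more without a saline mouse. They were 90 without the filter, 28 with the prior over mean log2 TPM, 41 with one prior variance and 323 with voom. Causes of these shifts were not tested, beyond fewer samples by construction.

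Equal replicate numbers did not pair the mice: correlations of their deviations from the group means were 0.0075, -0.0039 and 0.035. With the replicate block, 3646, 124 and 3287 genes were called in the 3 comparisons and no call of a member changed. Areg rested on at most 36 estimated reads in a mouse and Ereg on at most 21, which limits both.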
